A study of Mus musculus with 16 samples.

Results

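The comparison described here is the effect of tau in mice with intact Ch25h, the gene for cholesterol 25-hydroxylase, read from single nuclei of the hippocampus. The 4 libraries whose genotype is given as Ch25h+/+ Tau+ were set against the 4 given as Ch25h+/+ Tau-, and every barcode with at least 500 unique molecular identifiers (UMIs), at least 300 genes and at most 5% mitochondrial UMIs was taken as a nucleus. That rule gave 75758 nuclei in these 8 libraries, of 147873 in all 16 libraries of the series. The 16 libraries come from female mice of 9 months in 4 groups of 4, and the other groups are Ch25h-/- Tau+ and Ch25h-/- Tau-. Both groups compared carry intact Ch25h and differ by label in tau alone. The tau line, the promoter that drives it and littermate relations are not given in the sources used here, and neither is it said how mice were assigned to libraries, so p-values measure the spread between these libraries. Attention is on 4 classes: oligodendrocyte precursor cells (OPCs), excitatory neurons other than the dentate granule and CA pyramidal neurons, fibroblasts, and epithelial cells of the choroid plexus.

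Tau is a microtubule-binding protein that forms aggregates inside neurons and some glia in Alzheimer's disease and related tauopathies, and mice that carry a tau transgene are used to model this. OPCs are dividing glia spread through the brain that renew oligodendrocytes and can take up antigen-presenting and interferon-induced gene programmes in inflamed tissue. Fibroblasts line the meninges and larger vessels, and the choroid plexus epithelium secretes cerebrospinal fluid and the thyroid hormone carrier transthyretin. Ch25h makes 25-hydroxycholesterol, an oxysterol induced by interferon in myeloid cells that lowers sterol synthesis in cells exposed to it. The series asks, by its title, how such lipid signalling relates to innate immune activation and tau.

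The 8 libraries held 57518281 to 75905131 UMIs and 8408 to 11654 nuclei each, with a median of 3846 to 5103 UMIs per nucleus. After 5801 predicted doublets were removed, 66048 of 69957 nuclei took 1 of 15 class names. On the first principal component of the summed counts, which held 22.03% of the variance in OPCs, replicates 1 and 2 of each group lay apart from replicates 3 and 4. This split held for 16 of 16 libraries in OPCs and 13 of 13 in choroid plexus cells, but for 15 of 16 in the excitatory class and 13 of 15 in fibroblasts. Its 2 sides, taken over all classes, are called the first side and the second side below. The median depth was 2629 to 3390 UMIs per OPC in Tau+ and 2369 to 2699.5 in Tau-, and 1946 to 2299 against 1384 to 1638.5 per fibroblast. The groups overlapped in OPCs, through Tau- replicate 1, and did not in fibroblasts. They also overlapped in the excitatory and choroid plexus classes, at 6745 to 9560 against 6470 to 7040 per excitatory neuron and 3536 to 4977.5 against 3101.5 to 3904 per choroid plexus cell. The part that depth per nucleus plays in the results was not tested. RNA free in the suspension supplied an estimated 9.42 to 31.2% of UMIs in OPCs, 3.51 to 5.41% in the excitatory neurons, 5.22 to 23.8% in fibroblasts and 4.05 to 9.96% in choroid plexus cells. Pairs of libraries shared few cell barcodes, such as 30 between Tau+ replicates 1 and 4, or 0.342% of the smaller library. Ch25h UMIs were present in the libraries labelled Ch25h-/- too, 10 to 30 each over all nuclei, against 8 to 36 in those labelled Ch25h+/+. The deleted part of the gene is not given in the sources used here, so these counts do not check the genotype, and Ch25h-/- is used as labelled throughout.

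Clusters were named from defining markers, so their presence in the 4 classes follows from the naming. UMIs alone do not set a class apart, as all 24 markers of the excitatory class had UMIs in OPCs too. All 8 OPC markers, all 24 markers of the excitatory class, all 11 fibroblast markers and all 11 choroid plexus markers had UMIs. Their summed level in OPCs was 16045 to 16809 CPM (UMIs per 1e6 UMIs of the class in a library) in Tau+ and 14345 to 16830 in Tau-, so the groups overlapped. In choroid plexus cells the sum was 36395 to 38759 CPM in Tau+ and 34241 to 48975 in the 3 Tau- libraries that held such cells.

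Fibroblasts and choroid plexus cells had a higher mean share of the named nuclei in Tau+ than in Tau-, with groups that overlapped, and neither passed the test. Fibroblasts were 4.37%, 2.16%, 4.04% and 1.93% of named nuclei in Tau+ replicates 1 to 4, and 0.420%, 0.366%, 3.22% and 0.467% in Tau-. Tau- replicate 3 lay inside the Tau+ range and the other Tau- libraries lay below it. The means were 3.13% ± 1.26 and 1.12% ± 1.40 (SD, n = 4 each), and the two-sided exact permutation test gave p = 0.0857, or 0.214 after Benjamini-Hochberg adjustment over 15 classes. Choroid plexus cells were 3.29%, 2.61%, 3.40% and 2.16% in Tau+ and 1.77%, 2.50%, 1.65% and 0% in Tau-, with p = 0.0571 and an adjusted p of 0.214 by the same exact test. A count of 0 choroid plexus nuclei in Tau- replicate 4 went with Ttr, the transthyretin gene, at 1.96 CPM in that library's excitatory neurons, against 38.0 to 58.6 CPM in the other Tau- libraries.

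OPCs were 2.83% ± 0.175 of named nuclei in Tau+ and 3.07% ± 0.596 in Tau- (SD, n = 4 each; exact permutation p = 0.543, adjusted 0.626). Counted within non-neuronal nuclei, their share was lower in Tau+ by value, by -2.16 percentage points (exact permutation p = 0.0286, adjusted 0.429). The excitatory class was 17.3% ± 3.0 in Tau+ and 19.8% ± 1.19 in Tau- (exact permutation p = 0.200, adjusted 0.333). Leaving out 1 library moved its difference from -1.50 percentage points, without Tau+ replicate 1, to -3.67, without Tau+ replicate 2 (exact permutation p = 0.0286, adjusted 0.214). Counted within neurons, the class was 1.47 percentage points higher in Tau+. No class passed the adjusted threshold of 0.05. With 4 against 4 libraries the smallest p that this test can give is 0.0286, and 2 classes reached it, each with an adjusted p of 0.214. CA pyramidal neurons were at 14.3% ± 0.401 in Tau+ against 17.3% ± 2.10 in Tau-, a difference that was -0.374 percentage points within neurons (exact permutation, adjusted p = 0.949). T cells were at 0.121% ± 0.0538 in Tau+ against 0.0532% ± 0.00406 in Tau-.

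**Figure D1:**
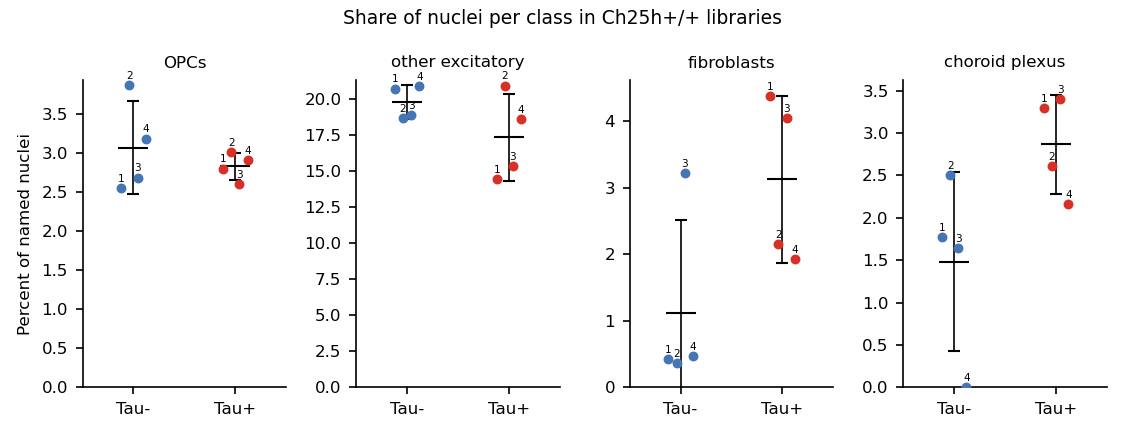
Share of named nuclei, in percent, held by each of the 4 classes in the 8 libraries. Each numbered point is 1 replicate, and the black mark is the group mean with its SD; Tau- replicate 3 reaches 3.22% fibroblasts, inside the Tau+ range, and Tau- replicate 4 has no choroid plexus nuclei.

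In OPCs, 1 gene of 9390 tested passed an adjusted p of 0.05, which is 0.0106% of the genes tested: Gm43049, a predicted gene on chromosome 3. It was read at 84.5, 80.7, 66.8 and 64.7 scaled CPM in Tau+ replicates 1 to 4 and at 0 in all 4 Tau- libraries. The groups did not overlap. Its 215 UMIs in Tau+ OPCs against 0 in Tau- make it at least 67.1-fold higher, counted against a floor of 3 UMIs over the Tau- group (edgeR quasi-likelihood test with Benjamini-Hochberg adjustment, adjusted p = 3.79e-12). DESeq2 called 1 gene as well, and 485 genes (5.17%) had an unadjusted p under 0.05. Without Tau+ replicate 3 there were 6 calls, H2-D1 and C4b among them, and leaving out any other library left 1. With the side of the first principal component as a term in the model, 5 genes were called. Gm43049 (ENSMUSG00000105777) lies on chromosome 3 from 140692038 to 140760704 in GRCm38.

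The OPC genes next in order of p were given by value only. H2-D1, a classical MHC class I heavy chain, was at 69.7, 38.1, 33.4 and 38.0 scaled CPM in Tau+ and 19.8, 21.2, 10.5 and 12.6 in Tau-. Every Tau+ library was above every Tau- library, and Tau+ replicate 1 stood highest. The log2 difference was 1.43 (SE 0.30, adjusted p = 0.198 by edgeR), and over the 8 fits that each left out a library the adjusted p ran from 0.0416, without Tau+ replicate 3, to 0.920, without Tau+ replicate 1. It was similar on both sides, at 1.33 on the first and 1.60 on the second.

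Prnp, the prion protein gene, was at 90.5, 88.5, 100 and 104 scaled CPM in Tau+ OPCs and 48.7, 52.5, 52.7 and 52.1 in Tau-. The groups were tight and did not overlap, with a log2 difference of 0.89 (SE 0.21, edgeR adjusted p = 0.325). Free RNA could supply up to 79.8% of the Prnp UMIs in OPCs by the estimate used. In Ch25h-/- mice, which share no animal with this comparison, the log2 difference of Prnp in OPCs was 1.27 and passed the test (edgeR adjusted p = 0.00478). The Prnp promoter drives the transgene in some tau lines. Which line was used is not given in the sources used here, and whether transgene reads were counted as Prnp was not tested.

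Genes lower in Tau+ OPCs by value were led by Shisa9, an auxiliary subunit of AMPA-type glutamate receptors. It was at 144, 194, 162 and 179 scaled CPM in Tau+ and 244, 210, 285 and 308 in Tau-, without overlap (log2 difference -0.61, SE 0.14, edgeR adjusted p = 0.226). Spry4, an inhibitor of receptor tyrosine kinase signalling, ranged from 23.9 to 35.6 in Tau+ and from 42.6 to 57.0 in Tau- (log2 difference -0.83). In Ch25h-/- mice the log2 differences of Shisa9 and Spry4 were -0.07 and -0.10. Armcx1, which takes part in mitochondrial transport, ranged from 12.3 to 18.3 in Tau+ and from 22.1 to 48.7 in Tau-.

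The interferon-stimulated and MHC class I lists had positive median log2 differences in Tau+ OPCs, larger on the first side than on the second, a difference that was not tested and that H2-D1 did not show. Of 38 interferon-stimulated genes listed, 12 had enough counts in OPCs to be tested; 12 of these had positive log2 differences and 7 an unadjusted p under 0.05 (2.62% of all OPC genes were higher at that p), with 0 passing the adjusted threshold and a median of 0.73, where all genes tested had a median of -0.0042 and 49.2% positive values. On the second side alone the median was 0.25, and without Tau+ replicate 1 it was 0.41. The count filter can keep a low gene through the Tau+ libraries alone. The signs in this list, and in the OPC lists that follow, therefore do not test a difference.

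Of 14 MHC class I presentation genes, 5 were tested, and their median log2 difference was 0.82 (1.23 on the first side, 0.02 on the second, 0.54 without Tau+ replicate 1). H2-K1, the other classical heavy chain named here, was at 60.8, 32.5, 11.7 and 21.1 scaled CPM in Tau+ and 14.4, 13.4, 21.1 and 14.2 in Tau-, so its groups overlapped. Of 12 genes of disease-associated oligodendrocytes, 8 were tested, 7 were positive and 4 were higher at an unadjusted p under 0.05 (2.62% of all genes were), with a median of 0.92 that was 1.28 on the first side and 0.20 on the second. C4b, the complement component among them, was at 99.4, 58.3, 6.68 and 52.0 scaled CPM in Tau+ and 1.80, 7.83, 5.27 and 6.31 in Tau-. Tau+ replicate 3 was inside the Tau- range for C4b. The log2 difference of C4b was 3.25 (SE 0.77, edgeR adjusted p = 0.507), and without Tau+ replicate 3 its adjusted p was 0.00467. Summed microglial markers in OPCs were 118 to 138 CPM in Tau+ and 90.6 to 159 in Tau-, and summed astrocyte markers were 1048 to 1090 and 1023 to 1241, so neither set separated the groups. Summed endothelial markers did, at 13.1 to 36.2 CPM in Tau+ OPCs and 6.04 to 11.7 in Tau-. Those of border-associated macrophages had medians of 12.9 and 3.43 CPM and those of Cajal-Retzius cells were at 21.9 to 68.0 and 10.6 to 25.1, both with overlap. All 8 endothelial and all 6 Cajal-Retzius markers had UMIs, and of the 6 macrophage markers Cd163 and Lyve1 were at 0. The part of these cells in the OPC values was not tested.

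The promoter of Stat2, a transcription factor of the type I interferon response, is shown because it is the 1 promoter, among the 8 tested interferon-stimulated genes matched to the RefSeq promoter table, that held the interferon-stimulated response element, searched as GAAA, any 2 bases and GAAA, on either strand. The 250 bases before its start, chr10:128270248-128270497 in GRCm38.p6 on the plus strand, carry the match on the opposite strand, from base 222 to base 213 before the start. The match is in capitals.
Stat2: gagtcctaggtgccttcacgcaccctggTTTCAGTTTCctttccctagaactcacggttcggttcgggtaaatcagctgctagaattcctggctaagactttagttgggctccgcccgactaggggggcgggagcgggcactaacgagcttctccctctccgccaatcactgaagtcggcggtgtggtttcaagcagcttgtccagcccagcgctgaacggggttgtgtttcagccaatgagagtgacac
The element was found in 978 of 32851 promoters of this length (2.98%), and in 12 of the 25 matched interferon-stimulated genes tested in astrocytes. Stat2 itself was at 53.4, 35.9, 26.7 and 25.3 scaled CPM in Tau+ OPCs and 18.0, 24.6, 10.5 and 26.8 in Tau- (log2 difference 0.78, edgeR adjusted p = 0.924). Its groups overlapped through Tau- replicate 4.

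Genes that define the OPC state had median differences near 0. The 16 OPC identity genes, all tested, had a median log2 difference of -0.03 with 5 positive, and 9 tested genes of oligodendrocyte differentiation had a median of -0.05. Lhfpl3, an abundant OPC transcript, was at 7689, 7372, 6643 and 7582 scaled CPM in Tau+ and 6408, 6543, 6977 and 6150 in Tau- (log2 difference 0.17, SE 0.07, edgeR adjusted p = 0.924). The 10 tested genes of cholesterol synthesis had a median of -0.02 with 5 positive. Genes of the respiratory chain lay lower by value, with 10 of 56 positive, 3 lower at an unadjusted p under 0.05 (2.55% of all genes) and a median of -0.21, and this median was 0.20 once the estimated free RNA was subtracted. None of the 26 lists with at least 3 tested members held a call in OPCs apart from the genes around Gm43049.

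**Figure D2:**
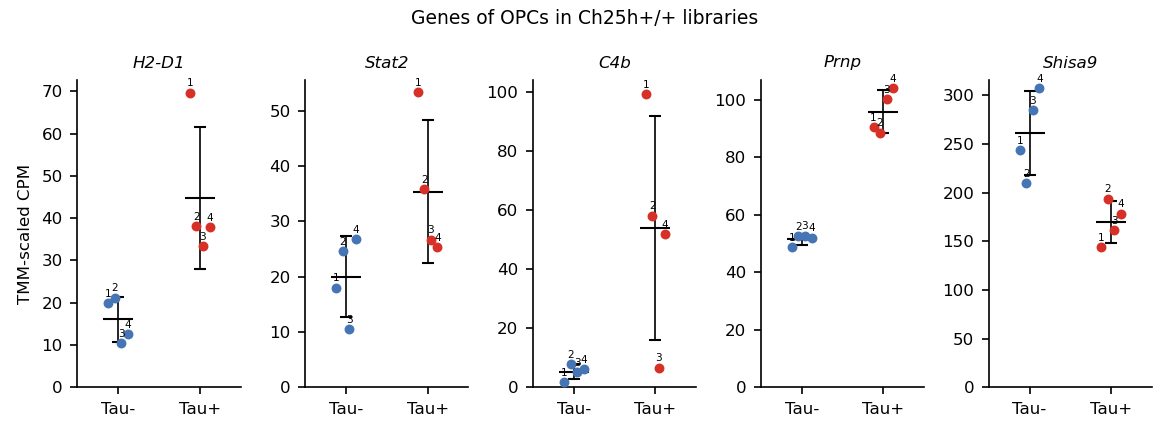
TMM-scaled CPM of 5 OPC genes in each of the 8 libraries. Numbered points are replicates and the black marks are group means with SD; H2-D1, Prnp and Shisa9 do not overlap between groups, and Tau+ replicate 3 lies among the Tau- libraries for C4b and reaches 26.7 for Stat2, just below Tau- replicate 4.

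In the excitatory neurons other than dentate granule and CA pyramidal neurons, the 3 genes called of 16825 tested (0.0178%) were all higher in Tau+ and lie within 5 Mb of each other on chromosome 3. Gm43049 was at 75.1, 96.4, 71.6 and 82.2 scaled CPM in Tau+ and 0.160, 0.0786, 0.168 and 0 in Tau- (log2 difference 9.56, SE 0.31, edgeR adjusted p = 5.46e-12). Gm32754 (ENSMUSG00000104544, 140904998 to 140917459) had 461 UMIs in Tau+ and 0 in Tau-, at least 156-fold higher (edgeR adjusted p = 3.01e-07). The third, 4930590L14Rik (ENSMUSG00000106540, 140951876 to 140953247), had 123 UMIs against 0, at least 41.7-fold higher (edgeR adjusted p = 0.000123). DESeq2 called 5 genes, and 684 genes (4.07%) had an unadjusted p under 0.05. Every call in dentate granule neurons (4 of 15084 genes), CA pyramidal neurons (3 of 16412) and inhibitory neurons (3 of 14468) lay within 5 Mb of Gm43049. So did the 1 call in oligodendrocytes and the 1 in OPCs. Of the calls elsewhere, 1 of 76 in astrocytes, 1 of 157 in microglia and 0 of 2 in mural cells did. Whether these differences arise from this stretch of chromosome 3 or from tau was not tested.

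Unc5c, a receptor for the axon guidance cue netrin, lies in the same stretch of chromosome 3, from 141465216 to 141834924. It was at 493, 490, 444 and 456 scaled CPM in Tau+ and 649, 717, 702 and 719 in Tau-. All Tau+ libraries were below all Tau- libraries, with a log2 difference of -0.56 (SE 0.10, edgeR adjusted p = 0.0944). In Ch25h-/- mice the difference was -0.65 and passed the test (edgeR adjusted p = 0.0165). Unc5c was also called in inhibitory neurons with Ch25h intact, at a log2 difference of -0.76 (edgeR adjusted p = 0.00458). Prnp was at 117, 114, 117 and 143 scaled CPM in Tau+ and 61.2, 54.1, 88.0 and 77.6 in Tau- (log2 difference 0.80, SE 0.16, edgeR adjusted p = 0.456), again without overlap. Mapt, the mouse gene for tau itself, had a log2 difference of -0.0020 (SE 0.07) in these neurons and 0.10 (SE 0.11) in OPCs.

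The class pools several kinds of neuron, so the test was repeated in its 12 clusters, called by number and leading genes. Gm43049 was called in 11 of the 12. In cluster 51 it was not among the genes tested, and had 42 UMIs in Tau+ and 0 in Tau-, at least 14.3-fold higher against the floor of 3 UMIs. Prnp rose in 4. In cluster 1, led by Kcnh8, Hmga2 and Sntb1 and with 888 nuclei, Prnp was at 92.4, 104, 90.6 and 117 scaled CPM in Tau+ and 40.8, 32.6, 36.5 and 31 in Tau-, and 2 of 10152 genes (0.0197%) were called. The log2 difference was 1.53 (SE 0.19, edgeR adjusted p = 3e-05), and the call held whichever library was left out, with adjusted p from 9.37e-05 to 0.000847. Prnp was also called in cluster 5 (0.0244% of genes called), cluster 15 (0.0280%) and cluster 42 (0.0263%), with log2 differences of 1.0, 0.91 and 0.97 and edgeR adjusted p of 0.0454, 0.0115 and 0.0207. These calls held in 0, 3 and 3 of the 8 fits that each left out a library, where adjusted p reached 0.333, 0.102 and 0.180. By value Prnp was higher in Tau+ in all 12 clusters, from 0.40 in cluster 39 to 1.53 in cluster 1.

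Unc5c fell in cluster 32, led by Skint1, Fn1 and Nts, where 2 of 10251 genes (0.0195%) were called. It was at 1228, 1096, 1316 and 1026 scaled CPM in Tau+ and 2226, 2254, 2564 and 2327 in Tau-, a log2 difference of -1.01 (SE 0.09, edgeR adjusted p = 1.22e-08). No left-out library ended this call, and in Ch25h-/- mice the difference was -0.94. It also fell in cluster 22, which scored highest for the markers of the excitatory class but took no class name because Dcn, a fibroblast marker, was among its leading genes, at 219, 212, 215 and 221 against 323, 415, 374 and 357 (log2 difference -0.76, edgeR adjusted p = 0.00268, with 0.0254% of genes called). By value it was lower in Tau+ in all 12 named clusters, from -0.06 in cluster 51 to -1.01 in cluster 32. In cluster 51, a cluster of 227 nuclei led by Col24a1 and Arhgap6, the 1 gene called (0.0243%) was Gm28905, a predicted gene, at 109, 55.1, 169 and 152 scaled CPM in Tau+ and 276, 217, 265 and 411 in Tau-. Its log2 difference was -1.29 (edgeR adjusted p = 0.0474) and 0.04 in Ch25h-/- mice, and the call held in 2 of the 8 fits, those without Tau+ replicate 3 and without Tau- replicate 2.

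**Figure D3:**
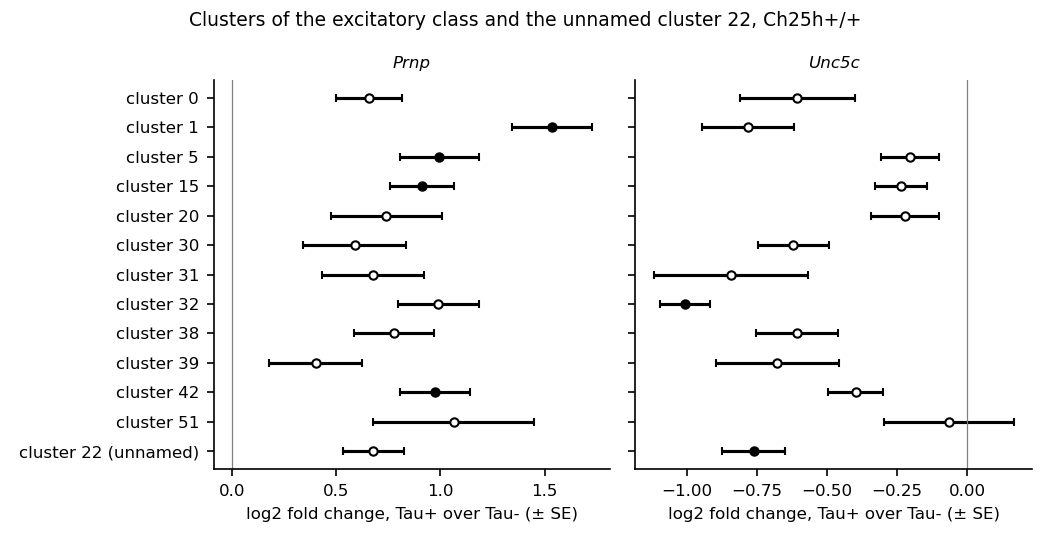
Log2 fold change of Prnp and Unc5c, Tau+ over Tau-, with its standard error in the 12 clusters of the excitatory class and in the unnamed cluster 22; filled points passed the adjusted threshold. Prnp lies above 0 and Unc5c below 0 in all 12 named clusters, with the largest values in cluster 1 (1.53) and cluster 32 (-1.01).

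Cholesterol synthesis genes had lower values in Tau+ excitatory neurons, none past the test. All 21 tested of 22 listed had negative log2 differences, 11 with an unadjusted p under 0.05 and 0 past the adjusted threshold, with a median of -0.36. Of all genes in the class, 49.5% were positive and 1.94% were lower at that p. In 4 of them the groups did not overlap, where 2.42% of all genes had groups that did not. Fdft1, squalene synthase, was at 29.3, 31.7, 39.6 and 32.6 scaled CPM in Tau+ and 45.6, 46.9, 41.4 and 44.0 in Tau- (log2 difference -0.42, SE 0.11, edgeR adjusted p = 1). Cyp51, which demethylates lanosterol, had a log2 difference of -0.36, from 36.7 to 49.2 in Tau+ and 45.5 to 59.9 in Tau-. In Ch25h-/- mice the median of the same list was -0.27, again with 0 positive.

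Hmgcs1, the synthase that makes HMG-CoA, is shown with its promoter because that promoter, alone among the 14 cholesterol synthesis genes tested and matched, held the sterol regulatory element TCACNCCAC on either strand. The 250 bases before its start are chr13:119690101-119690350 in GRCm38.p6, plus strand, and the match in capitals runs from base 137 to base 129 before the start.
Hmgcs1: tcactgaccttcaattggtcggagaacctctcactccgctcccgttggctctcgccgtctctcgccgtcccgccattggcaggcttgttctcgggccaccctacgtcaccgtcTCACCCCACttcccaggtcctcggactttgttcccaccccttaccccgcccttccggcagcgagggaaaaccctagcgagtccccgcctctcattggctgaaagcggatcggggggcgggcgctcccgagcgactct
The element was found in 346 of 32851 promoters (1.05%). Both promoters were picked for display after the values were seen. Hmgcs1 was at 18.9, 34.2, 30.8 and 22.7 scaled CPM in Tau+ and 34.9, 35.2, 39.9 and 35.1 in Tau- (log2 difference -0.44, SE 0.16, edgeR adjusted p = 1), and Tau+ replicate 2 came closest to the Tau- libraries.

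Interferon-stimulated genes had a median log2 difference of 0.38 in these neurons, with 19 of 22 tested positive and 5 higher at an unadjusted p under 0.05, where 2.13% of all genes were. Leaving out 1 library moved that median from 0.18, without Tau+ replicate 1, to 0.55, without Tau+ replicate 2. Because the count filter can keep a low gene through the Tau+ libraries alone, these signs do not test a difference. Summed choroid plexus markers in these neurons were 229.7 to 322 CPM in Tau+ and 185 to 238 in Tau-. Ependymal markers were at 19.0 to 21.3 and 14.6 to 19.8, and astrocyte markers at 488 to 540 and 516 to 619. Border-associated macrophage markers were at 7.60 to 26.8 and 4.94 to 26.0, with medians of 22.6 and 6.99. All of these sums overlapped, with UMIs for every marker. The part of these cells in the interferon and cholesterol values was not tested. Rnf213, an interferon-induced ubiquitin ligase, was at 8.08, 6.30, 6.23 and 6.62 scaled CPM in Tau+ and 4.17, 3.77, 4.96 and 3.56 in Tau- (log2 difference 0.72, edgeR adjusted p = 0.609), and its log2 difference in Ch25h-/- mice was -0.0022. Transcripts best known from glia had differences too: C4b, Gfap and Apoe had log2 differences of 1.84, 1.70 and 0.72, and free RNA could account for 100% of the UMIs of each. That of Apoe was 0.40 without Tau- replicate 3. Aldoc, an astrocyte enzyme, had a log2 difference of -0.99 with 82.6% of UMIs ascribed to free RNA. Neuronal lists stayed near the median of all genes: 31 genes of synaptic vesicle release had a median of -0.03, 23 glutamate receptor genes -0.05, 34 axon guidance genes -0.05 and 20 genes for tau and other microtubule-associated proteins -0.11.

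In fibroblasts, edgeR called 0 of 8929 genes (0%) and DESeq2 called 0, while 631 genes (7.07%) had an unadjusted p under 0.05. The smallest adjusted p was 0.234, and there were 2 calls without Tau- replicate 3, the deepest Tau- library in this class, and 1 without Tau- replicate 2. Depth was unequal, with 389, 182, 302 and 143 nuclei in Tau+ libraries and 32, 35, 274 and 38 in Tau-. In Tau- replicates 1, 2 and 4, 1 UMI was worth at least 17.2 CPM. Differences of low genes were not detectable at this depth.

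Among fibroblast genes higher in Tau+ by value, Wnt6, a secreted Wnt ligand, was at 70.8, 51.6, 60.1 and 50.8 scaled CPM in Tau+ and 18.1, 17.6, 22 and 17.2 in Tau-. The groups did not overlap, but the values of Tau- replicates 1, 2 and 4 are no larger than the worth of 1 UMI in the shallowest Tau- library. The log2 difference was 1.52 (SE 0.40, edgeR adjusted p = 0.434), and it was -0.89 in Ch25h-/- mice. Snx9, an endocytic sorting protein, ranged from 57.0 to 103 in Tau+ and from 34.4 to 36.6 in Tau- (log2 difference 1.25), and Emc2, a subunit of the endoplasmic reticulum membrane complex, from 95.5 to 120 and from 17.2 to 72.4 (log2 difference 1.01). Both rest on few UMIs in Tau- replicates 1, 2 and 4, where 1 UMI was worth at least 17.2 CPM.

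Among fibroblast genes lower in Tau+ by value, Rps10, a protein of the small ribosomal subunit, was at 38.0, 51.6, 35.4 and 29.9 scaled CPM in Tau+ and 127, 17.6, 159 and 68.8 in Tau- (log2 difference -1.59, SE 0.34, edgeR adjusted p = 0.234), and its groups overlapped through Tau- replicate 2. Without Tau- replicate 3 its log2 difference was -0.88. Vtn, the adhesion protein vitronectin, was at 537, 462, 508 and 272 in Tau+ and 851, 792, 776 and 947 in Tau-, without overlap (log2 difference -0.90, SE 0.24, edgeR adjusted p = 0.434). Lama1, a laminin chain of basement membranes, ranged from 596 to 739 in Tau+ and from 720 to 2220 in Tau-, and Aldh1a1, which makes retinoic acid, from 194 to 242 and from 293 to 598, with log2 differences of -0.88 and -0.72. That of Lama1 was -0.44 without Tau- replicate 4.

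Markers of other cells in fibroblasts differed by value. Summed mural markers, all 9 with UMIs, were at 331 to 412 CPM in Tau+ and 360 to 824 in Tau-, and Vtn is among the leading genes of the mural cluster, cluster 47. Summed markers of the excitatory class, with Drd2 and Nxph4 of 24 at 0, were at 1752 to 2385 CPM in Tau+ and 807 to 1998 in Tau-. Those of dentate granule neurons were at 231 to 351 and 126 to 237. All 3 sums overlapped between the groups, and the part of these cells in the fibroblast values was not tested.

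Of 33 tested extracellular matrix genes, 12 were positive, 7 were lower at an unadjusted p under 0.05 and the median was -0.39. Of all fibroblast genes, 54% were positive and 3.64% lower at that p, with a median of 0.04. The sign of the matrix median changed with the libraries, since it was 0.26 on the first side alone. The 61 respiratory chain genes had a median of -0.49 with 14 lower at an unadjusted p under 0.05, but 0.20 on the first side, and leaving out 1 library moved it as far as 0.11. Atp5o, an ATP synthase subunit, shows this, at 11.9 to 17.0 scaled CPM in Tau+, 17.2 to 18.1 in 3 Tau- libraries and 73.2 in Tau- replicate 3. That library also had the highest median share of mitochondrial UMIs per nucleus, 0.23% against 0.036 to 0.073% in the other 7, and its part in these values was not tested. Immediate early genes were positive in 11 of 12 with a median of 1.54, and Fos and Junb were highest in Tau+ replicate 3, at 83.2 and 128. Fos was at 0 in 3 Tau- libraries of this class, where 1 UMI was worth at least 17.2 CPM. The count filter can keep a gene through the deeper Tau+ libraries alone, so the signs in this list do not test a difference. In Ch25h-/- mice the median of that list was -1.40. Interferon-stimulated genes had a median of -0.08 with 9 of 21 positive.

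Ch25h itself was close to the limit of detection in the 4 classes. In fibroblasts it had 3, 0, 6 and 0 UMIs in Tau+ replicates 1 to 4 and 0 in each Tau- library. Tau- replicates 1, 2 and 4 held 32, 35 and 38 fibroblast nuclei, and replicate 3 held 274. The excitatory class had 2, 4, 2 and 2 UMIs in Tau+ and 1, 0, 0 and 3 in Tau-, and OPCs had 0 in every Tau+ library and 1 UMI in all of Tau-. Microglia of the same libraries had 20, 5, 1 and 7 UMIs in Tau+ and 0 in Tau-. At these counts no difference within the 4 classes was detectable.

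In choroid plexus cells, compared over 4 Tau+ and 3 Tau- libraries because Tau- replicate 4 had none, edgeR called 0 of 10648 genes (0%) and DESeq2 called 0. An unadjusted p under 0.05 was reached by 340 genes (3.19%), and 1 gene was called without Tau- replicate 3. Inpp5a, a phosphatase of inositol phosphates, had the smallest p, at 51.9, 62.6, 59.3 and 80.3 scaled CPM in Tau+ and 113, 126 and 103 in Tau- (log2 difference -0.87, SE 0.18, edgeR adjusted p = 0.593). The groups did not overlap, and the log2 difference in Ch25h-/- mice was -0.05.

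Other choroid plexus genes by value included Slc16a12, a creatine transporter of the monocarboxylate family, at 96.2, 81.9, 113 and 107 scaled CPM in Tau+ and from 49.3 to 69.9 in the 3 Tau- libraries (log2 difference 0.71, SE 0.21, edgeR adjusted p = 1). Wwc1, a scaffold of the Hippo pathway, ranged from 271 to 313 in Tau+ and from 372 to 428 in Tau- (log2 difference -0.45). Dgki, a diacylglycerol kinase, was at 154, 166, 185 and 216 in Tau+ and 300, 374 and 193 in Tau-, so Tau- replicate 3 lay within the Tau+ range. Among interferon-related genes, Irf9, which binds DNA together with Stat2, ranged from 38.7 to 44.5 in Tau+ and from 17.8 to 28.2 in Tau- (log2 difference 0.78, edgeR adjusted p = 1). Tapbp, the tapasin gene of peptide loading on MHC class I, ranged from 18.5 to 26.2 and from 7.05 to 14 (log2 difference 1.20, edgeR adjusted p = 1).

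Genes for the functions of the choroid plexus had median differences near 0. Of 36 genes of secretion and transport, all tested, 12 were positive, the median was -0.08 and 0 had an unadjusted p under 0.05. Ttr was at 11092, 10799, 11349 and 10060 scaled CPM in Tau+ and 9460, 7368 and 17981 in Tau- (log2 difference -0.10, SE 0.30), with the Tau- libraries on both sides of the Tau+ range. The 20 cilium genes had a median of 0.06, the 16 cholesterol synthesis genes 0.01 and the 72 respiratory chain genes -0.02. Interferon-stimulated genes had a median of -0.02 with 6 of 13 positive, where all choroid plexus genes had 50.1% positive. The sign of that median turned in each fit that left out a library, at 0.03 to 0.28, and was also positive over 8 libraries only, at 0.16.

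**Figure D4:**
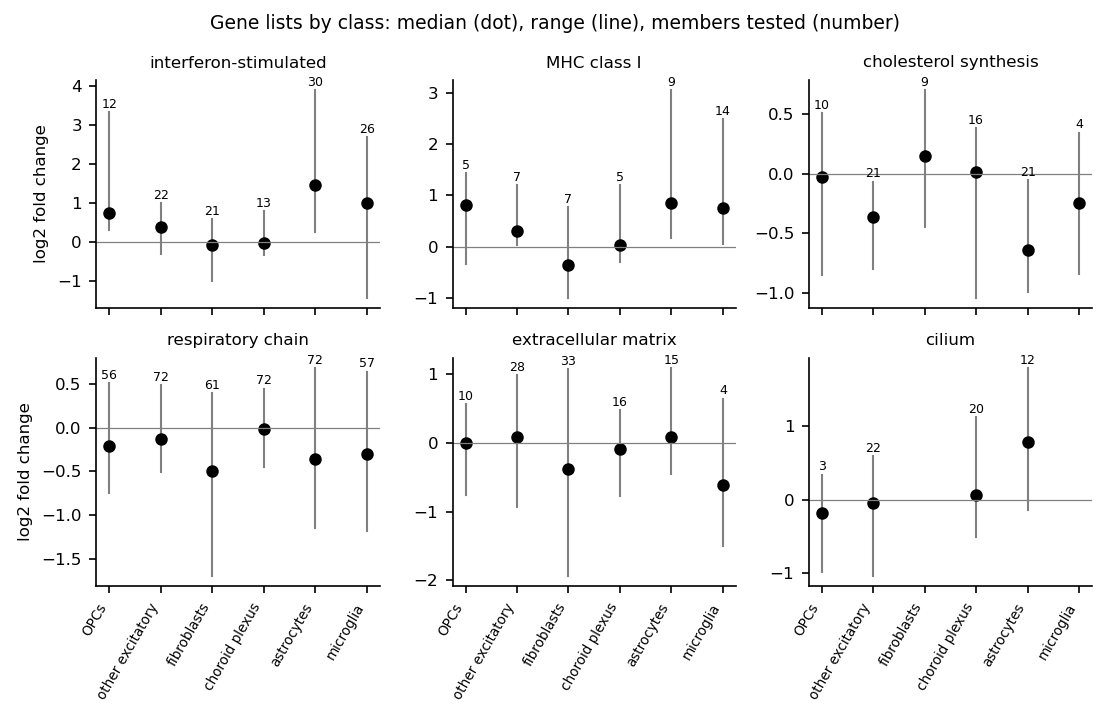
Log2 fold changes of 6 gene lists in 6 classes, Tau+ over Tau-, with the median as a dot, the range over tested members as a line and the number of tested members above it. The interferon-stimulated list has its median at 0.73 in OPCs and -0.02 in choroid plexus cells, where its sign turned whichever library was left out, and the cholesterol synthesis list at -0.36 in the excitatory class and -0.64 in astrocytes.

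Astrocytes and microglia of the same libraries held more calls than the 4 classes. Oligodendrocytes had 1 call of 11957 (0.00836%; DESeq2 14, and 821 genes at an unadjusted p under 0.05) and ependymal cells 0 of 3650 (0%; DESeq2 0, and 136 genes at an unadjusted p under 0.05). Astrocytes had 76 calls of 12815 (0.593%), 65 of them higher (0.507%), and microglia 157 of 8678 (1.81%), 93 of them higher (1.07%), by the same edgeR fit. These counts rest on single libraries: without Tau+ replicate 3 they were 184 and 432, and without Tau+ replicate 1 they were 9 and 9. With side as a term they were 240 and 349. Interferon-stimulated genes were positive in 30 of 30 tested in astrocytes, with a median log2 difference of 1.47, and in 25 of 26 in microglia, with a median of 0.99. Without Tau+ replicate 1 these medians were 0.99 and 0.59, and on the second side alone 0.91 and 0.46. Of all genes, 49.4% and 49.6% were positive in these classes. As in OPCs, the count filter can keep a low gene through the Tau+ libraries alone, so the signs of the interferon list do not test a difference. Depth per nucleus and markers of other cells moved with tau here too: the median was 2257.5 to 2886 UMIs per astrocyte in Tau+ and 2009.5 to 2175.5 in Tau-, and 1502 to 1744 against 1074.5 to 1252.5 per microglial nucleus. Summed CA pyramidal markers were 238 to 313 CPM in Tau+ astrocytes and 179 to 215 in Tau-, and 409 to 519 against 539 to 592 in microglia. All 12 of these markers had UMIs in astrocytes, and 11 of 12 in microglia, where Iyd was at 0. Their part in the glial results was not tested. Numbers of nuclei and UMIs differ between classes, so a call in one class and not in another is not a difference between them.

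For that, 7 pairs of a gene and 2 classes were compared by the per-library difference of log2(CPM + 1) between the classes. By value, the Tau+ minus Tau- difference of Prnp was larger in OPCs than in astrocytes by 1.19 and larger in the excitatory class than in astrocytes by 1.14, and larger in OPCs than in choroid plexus cells by 0.67 (two-sided exact permutation p = 0.0286 each, 0.05 after Benjamini-Hochberg adjustment over the 7, which does not pass). The difference of Unc5c was lower in the excitatory class than in astrocytes by value, -1.08 (exact permutation p = 0.0286, adjusted 0.05). In OPCs the log2 difference of Unc5c was -0.06, at 1051 to 1288 scaled CPM in Tau+ and 1168 to 1357 in Tau-. That of H2-D1 was larger by value in OPCs than in choroid plexus cells, by 1.61 (exact permutation p = 0.0571, adjusted 0.08). No pair passed the adjusted threshold. The smallest p that this test can give is 0.0286, with 4 against 4 or 4 against 3 libraries. Pairs at that floor could pass only if more of the 7 had reached it, so their failure to pass does not show equal effects.

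Gm43049 varied by class in Tau+ libraries. It was at 99.3 to 126 CPM in CA pyramidal neurons, 62.9 to 82.8 in OPCs, 31.1 to 38.5 in ependymal cells, 8.29 to 17.9 in astrocytes, 0 to 4.92 in microglia and 1.24 to 2.82 in fibroblasts. Since it is at or near 0 in every Tau- library, a test of its difference between classes would only restate these Tau+ levels. Its pairs were left out of the adjustment above.

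**Figure D5:**
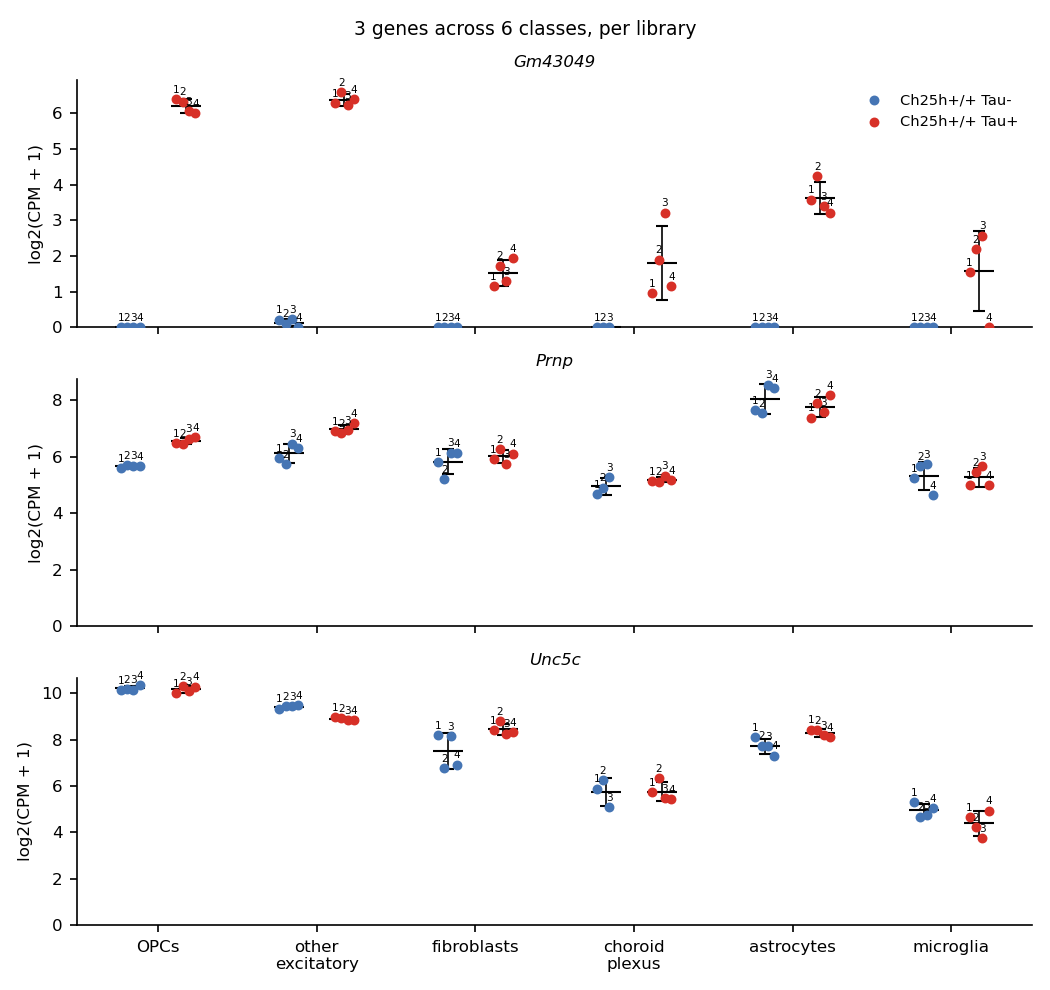
Levels of Gm43049, Prnp and Unc5c in 6 classes on a log2(CPM + 1) scale. Numbered points are replicates and the black marks are group means with SD; Gm43049 is at or near 0 in every Tau- library, and Prnp separates the groups in OPCs and the excitatory class.

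In the Ch25h-/- libraries, the 1 gene called in OPCs and the 3 called in the excitatory class kept their sign, and Gm43049 passed the test again in both (edgeR adjusted p = 2.08e-12 and 5.68e-12). Of the astrocyte calls, 75 of 76 had the same sign in Ch25h-/- mice, and of the microglial calls 155 of 157, where 59.6% of all astrocyte genes and 63.2% of all microglial genes had the same sign. By the adjusted test in Ch25h-/- mice 6 of the astrocyte calls passed, where 7 of all genes did (0.0546%), and 27 of the microglial calls, where 60 of all genes did (0.691%). The test of the difference between the 2 tau effects called no gene in any of the 13 classes tested. By value, H2-D1 had a log2 difference of 0.83 in Ch25h-/- OPCs, and Jun, a part of the AP-1 transcription factor, had -0.31 against 1.11 with Ch25h intact.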

How the data were processed

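Nuclei of 16 hippocampi were profiled with the 10x Genomics 3' v3.1 kit, per the labels' protocols. The deposited matrices hold whole UMI counts per gene and barcode, made by the authors with Cell Ranger 3.1.0 against mm10 per the submitters' processing notes; the file headers name Cell Ranger 4. Neither the annotation nor the handling of intronic reads is given in the sources used here. Positions are from GENCODE M21 (GRCm38).

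Barcodes passing the rule were scored for doublets with Scrublet in scanpy (0.8% expected per 1000 nuclei), clustered (scanpy 1.11.5, 3000 variable genes, 50 components, 20 neighbours, Leiden resolution 1) and named from markers, with 35 of 54 clusters named. Free RNA was estimated from barcodes with fewer than 100 UMIs. UMI counts were summed per library and class (at least 10 nuclei) and tested with edgeR 4.0.16 in R 4.3.3: TMM scaling, filterByExpr and the quasi-likelihood test over all 16 libraries with 1 mean per group, with Benjamini-Hochberg adjustment over the genes of a class. A gene is called at an adjusted p under 0.05. Scaled CPM uses TMM library sizes. DESeq2 1.42.0 was an alternative. The script was tested on simulated data.

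Genes were named by a rule: called genes whose groups did not overlap and that averaged 10 or more UMIs a library. Where calls were few in the 4 classes, genes with the smallest p filled each direction up to 5. From each list up to 4 called genes, or else up to 2, were added. A fixed set was looked at in every class, with Prnp, Unc5c, Mapt, Apoe, C4b, Gfap, Axl and Ch25h in it. Classes, lists and alternatives were chosen with earlier results of these data known, so none is independent of them; the fits in clusters 22 and 34 were added after the counts were seen, and the pairs of Gm43049 were left out of the class comparisons. Intervals and floors cover counting error only. Some genes named by the rule, and some of the 7 comparisons between classes, are not reported here.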

Additional observations from a re-analysis of the deposited data

Results flagged for a closer look

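Up to 228 groups were looked at, and those without 4 libraries or with equal values in all were passed over. Chance alone would set 1 value apart in about 1 in 20 groups of 4 libraries. In OPCs the values apart from their group were H2-D1 in Tau+ replicate 1 (69.7 scaled CPM, the others 33.4 to 38.1), Axl in Tau+ replicate 3 (23.4, the others 12.7 to 13.4), Prnp in Tau- replicate 1 (48.7, the others 52.1 to 52.7), and H2-K1 in Tau- replicate 3 (21.1, the others 13.4 to 14.4).

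In the other excitatory neurons, Prnp in Tau+ replicate 4 was at 143 (the others 114 to 117), Aldoc in Tau+ replicate 1 at 2.22 (3.90 to 4.20), and Hmgcs1 and Gfap in Tau- replicate 3 at 39.9 and 1.26 (34.9 to 35.2 and 0.509 to 0.628).

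In fibroblasts most values apart belonged to the replicates 3. Tau- replicate 3 stood apart in the share of nuclei (3.22%, the others 0.366 to 0.467%), and in Atp5o (73.2, the others 17.2 to 18.1), C4b (65.9, the others 0) and Fos (4.88, the others 0). The other Tau- libraries held 32, 35 and 38 fibroblast nuclei, and 1 UMI was worth at least 17.2 CPM there. A Fos level of 4.88 would lie below 1 UMI in the shallowest. Tau+ replicate 3 stood apart in Junb (128, the others 14.9 to 32.8) and Fos (83.2, the others 13.1 to 24.6), and Tau+ replicate 2 in Tmsb4x (54.1, the others 65.7 to 66.8).

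In astrocytes Cfap44 was at 9.47 in Tau- replicate 2 (6.95 to 7.34 in the others). In microglia Myo18b was at 110 in Tau+ replicate 3 (36.3 to 40.6) and at 262 in Tau- replicate 4 (186 to 189), and P2ry13 at 107 in Tau- replicate 2 (130 to 135).

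The edgeR test of the difference in tau effect between Ch25h+/+ and Ch25h-/- mice called 8 genes within single clusters, with adjustment within each cluster. They were 1 of 11813 genes tested in cluster 22, 1 of 5300 in cluster 31 and 6 of 7997 in cluster 34. The whole fibroblast class, which holds cluster 34, had 0. In cluster 22 Mkx, a homeobox transcription factor gene, had a log2 difference of -0.90 with Ch25h intact and 1.21 without, which differ by -2.10 (adjusted p = 0.00677). Its values were 22.5, 22.5, 21.9 and 23.2 scaled CPM in Ch25h+/+ Tau+ and 44.3, 42.6, 31.7 and 48.7 in Ch25h+/+ Tau-. In cluster 31 Gm12160 differed by -9.58 (adjusted p = 0.0305) on a mean of 5.88 UMIs per library. The 3 Ch25h-/- Tau- libraries fitted were all at 0, so this is a fitted value and no bound. Its Ch25h+/+ Tau- replicate 3 was apart at 65.6 (the others 31.2 to 36.5).

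The other 6 genes are in the fibroblast cluster 34, which was fitted after the counts had been seen: Rcan2 (2.19, adjusted p = 0.0130), Ccn1 (5.54, 0.0215), Wnt6 (2.60, 0.0414), Glul (1.44, 0.0414), Greb1 (4.61, 0.0489) and Aox3 (-1.22, 0.0489), by the same edgeR test. None of the 6 passed the test in Ch25h+/+ or in Ch25h-/- mice alone. Ccn1, a secreted matricellular protein, was at 33.3, 60.6, 80.2 and 32.4 scaled CPM in Ch25h+/+ Tau+ and 0, 0, 6.12 and 18.5 in Ch25h+/+ Tau-. These Ch25h+/+ Tau- libraries held 28, 35, 226 and 37 nuclei of the cluster.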

How the results depend on the processing

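No paired analysis was possible because the labels give no replicate numbers that pair libraries across groups. Of the main results under each alternative, 795 values were counted as the same, 73 moved, 4 gained the threshold and 2 reversed. The same means on its side of the threshold, within the spread of libraries or, for numbers of calls, within a set ratio. No share of nuclei and no pair of classes passed at the start, so none could lose the threshold. The 4 that gained it are the pairs given below, through the added pairs of Gm43049. Only shares and tested differences were counted as reversed: list medians have no test, and 74 of their 598 values had the other sign, 14 of them among those that moved. For the 106 named genes, counted per class or cluster, 1539 of 1782 values were the same. Of the rest, 168 lost the threshold, 37 gained it and 38 moved. The numbers called moved with several settings, and the cause was not tested. OPCs had 1 call, and 2 with 8 libraries only or with free RNA removed, 5 with side as a term or on the second side alone, 11 with no filter, 23 on the first side alone and 1 to 6 leaving out 1 library. DESeq2 gave 5 in the excitatory class. Fibroblasts had 1 call with doublets kept, 27 with no filter, 55 on the first side alone and 0 to 2 leaving out 1 library. Choroid plexus cells had 22 on the first side and 0 to 1 leaving out 1 library. Their second side was not used alone, since it holds 1 Tau- library. The 76 astrocyte calls became 20 with 8 libraries only, 183 with DESeq2, 227 on the first side, 17 on the second, 240 with side as a term, 126 with no filter and 9 to 184 leaving out 1 library. The 157 microglial calls became 98 with 8 libraries only, 318 on the first side, 0 on the second, 349 with side as a term, 472 with no filter and 9 to 432 leaving out 1 library.

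The share of the excitatory class reversed to 1.47 percentage points higher in Tau+ when counted within neurons, and the share of OPCs ran from -0.413 to 0.0257 leaving out 1 library, reversing without Tau- replicate 2, and was -2.16 within non-neuronal nuclei. In OPCs the median of the disease-associated oligodendrocyte list was 1.28 on the first side, 0.203 on the second, 1.25 with free RNA removed and 0.653 to 1.20 leaving out 1 library. That of MHC class I was 1.23 on the first side and with no filter and 0.0199 on the second, and interferon-stimulated genes had 0.25 on the second. With free RNA removed, OPC identity had -0.128, cholesterol synthesis 0.259 and the respiratory chain 0.202, the last at -0.321 on the second side. In fibroblasts the first side gave 0.258 for extracellular matrix and 0.202 for the respiratory chain, whose range leaving out 1 library was -0.586 to 0.110, and the second side gave -0.225 for meningeal transport. In choroid plexus cells, secretion and transport had -0.0964 to 0.0531 leaving out 1 library. Interferon-stimulated genes there had 0.156 with 8 libraries only, 0.155 with a mean of 10 UMIs and 0.0254 to 0.277 leaving out 1 library, and the respiratory chain 0.0935 with free RNA removed. The cilium list of astrocytes had 1.03 on the first side, 0.423 on the second, 0.904 with free RNA removed and 0.676 to 1.10 leaving out 1 library, and the interferon list of microglia 1.54 and 0.460 on the 2 sides. Axon guidance in the excitatory class ran from -0.0946 to -0.0257.

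Between classes no difference passed over 7 pairs. An alternative chosen after the values were seen also counted 3 pairs of Gm43049, and put 4 pairs at an adjusted exact permutation p of 0.0408. These were Prnp in OPCs less astrocytes (1.19), OPCs less choroid plexus cells (0.67) and the excitatory class less astrocytes (1.14). Unc5c in the excitatory class less astrocytes (-1.08) was the other. Gm43049 is at or near 0 in every Tau- library, so its pairs only restate its Tau+ levels. The lower adjusted p that they bring says nothing about Prnp or Unc5c. Fibroblasts held 32 to 389 nuclei a library and choroid plexus cells 0 to 293, and the part of these counts in the results was not tested.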
